A study of Mus musculus with 4 samples.

Results

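The genes described here are 9 cytotoxic effector genes of lymphocytes, namely Gzma, Gzmb, Gzmk, Gzmm, Prf1, Nkg7, Ifng, Fasl and Klrk1. They were taken by symbol from the 32285 genes of the count tables, and all 9 were found. Their unique molecular identifiers (UMIs, each standing for 1 captured RNA molecule) were counted per library in barcodes sorted by marker genes into CD8 T, CD4 T, gamma-delta T and natural killer (NK) classes. The members themselves took no part in the sorting.

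The cells came from ascites, the fluid that collects in the abdomen, of female FVB mice bearing ovarian tumors grown from the mouse line Br-Luc, and were taken 6 weeks after the tumor cells were injected. Both groups of mice carried these tumors and received an siRNA in jetPEI nanoparticles. It was either siCont, the control, or siFXR1-LNA, an siRNA against Fxr1. Per the methods, the control siRNA carried locked nucleic acid (LNA) bases as well. Each group held 2 libraries of droplet single-cell RNA sequencing (10x Genomics). Per the methods, ascites of several mice was pooled for sequencing and a siFXR1-LNA sample with fewer reads and cells was left out of the published analysis, whereas both libraries were used here. A p-value below therefore measures the spread between these pooled samples, which may be technical.

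The libraries held 78179267 to 113606837 UMIs, and 132644 barcodes in all were kept, more than the cells the study states, of which 97620 were placed in no class. Shares of all UMIs of a gene below count these barcodes too. Hemoglobin made up 30.5% and 43.0% of UMIs in siCont replicates 1 and 2 and 10.2% in each siFXR1-LNA replicate. Fxr1, the gene targeted by the siRNA, was counted at 55.8 and 33.9 UMIs per 1000000 UMIs (CPM) in siCont and at 104 and 71.8 CPM in the other group. Among T barcodes its difference was 0.72 on the log2 scale (edgeR adjusted p = 0.505). In these 2 sets of barcodes Fxr1 was thus not lower in the libraries labelled siFXR1-LNA, which are called by their label throughout. The totals behind the all-barcode values include the hemoglobin UMIs. The paper reports lower Fxr1 in epithelial cells of the treated group, and Fxr1 in tumor barcodes was not examined here. Between 575 and 2846 barcode sequences were shared by any pair of libraries, but at most 1 of them was a T barcode.

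The T barcodes, defined by 2 or more Cd3 UMIs, numbered 761 and 1257 in siCont replicates 1 and 2, and 223 and 513 in siFXR1-LNA replicates 1 and 2. Of these, 116, 337, 62 and 121 were CD8 barcodes and 138, 342, 20 and 45 were CD4 barcodes, in the same order of libraries. Gamma-delta barcodes numbered 15, 24, 7 and 62, and NK barcodes 29, 28, 4 and 6. Every list of 4 values below follows this order, siCont replicates 1 and 2 and then siFXR1-LNA replicates 1 and 2. NK barcodes hold no Cd3 UMI by rule, and 2 genes of NK cells outside the rule were found in them. Klrd1, a partner of the NKG2 receptors, stood at 719 and 781 CPM in the siCont NK barcodes against 188 and 279 CPM in CD8, and Eomes, a T-box factor of killer cells, at 124 and 130 CPM against 39.96 and 30.39 CPM. The CD8 barcodes of siFXR1-LNA replicate 1 rest on thinner evidence, since 38.7% of them held 2 or more Cd8 UMIs against 68.6% to 75.0% in the other libraries.

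Killer lymphocytes store perforin and granzymes in secretory granules and release them onto a bound target cell. Perforin opens the target membrane, and the granzymes, which are serine proteases with different substrates, enter and start its death. In parallel, Fas ligand on the surface triggers death receptors, interferon gamma acts on macrophages and tumor cells, and NKG2D, the product of Klrk1, recognises stress ligands on the target. NK cells carry granule proteins ready-made, whereas most CD8 T cells acquire them after activation.

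The starts of 3 granzyme genes are shown first because their products share a protease fold. Below, Gzmk RNA fell to other lymphocyte classes than Gzma and Gzmb RNA. Gzma, highest in NK barcodes, and Gzmk, not counted in them, both lie on chromosome 13, Gzma at chr13:113093825-113100981 and Gzmk at chr13:113171608-113225908, and Gzmb lies at chr14:56258838-56262260 (all on the minus strand, GRCm38). Each line gives the 150 bases before the transcription start of the RefSeq promoter table (GRCm38.p6), read 5′ to 3′ on the gene's strand, from chr13:113100982-113101131, chr13:113180966-113181115 and chr14:56262335-56262484. Capitals mark matches, on either strand, to the Runx letters TGTGGT, the T-box letters GGTGTGA and the AP-1 letters TGANTCA.
Gzma: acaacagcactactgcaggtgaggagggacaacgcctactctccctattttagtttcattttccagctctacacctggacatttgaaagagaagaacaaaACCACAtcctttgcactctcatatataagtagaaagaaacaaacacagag
Gzmk: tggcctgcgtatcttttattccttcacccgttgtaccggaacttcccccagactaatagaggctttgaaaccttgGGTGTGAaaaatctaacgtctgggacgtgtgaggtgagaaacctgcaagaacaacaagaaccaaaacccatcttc
Gzmb: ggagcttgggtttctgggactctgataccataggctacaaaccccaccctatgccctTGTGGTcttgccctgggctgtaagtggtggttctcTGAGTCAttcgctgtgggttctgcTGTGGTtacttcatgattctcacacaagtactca
The Gzma window held 1 Runx match, the Gzmk window 1 T-box match, and the Gzmb window 2 Runx matches and 1 AP-1 match. Prf1 and Klrk1 each held 1 Runx match, Nkg7 held 1 Runx and 1 T-box match, and the windows of Gzmm, Ifng and Fasl held 0 of these letters. Among 32851 windows of 150 bases in the table, 8.4% held the Runx letters, 1.92% the T-box letters and 4.24% the AP-1 letters. The other members lie at chr10:79689020-79695261 (Gzmm), chr10:61297833-61304680 (Prf1), chr7:43437073-43438249 (Nkg7) and chr10:118441046-118445892 (Ifng) on the plus strand, and at chr1:161780689-161788495 (Fasl) and chr6:129610323-129623864 (Klrk1) on the minus strand. A match describes the letters alone, and the Gzmk window lies within the longer gene span of the annotation used for counting.

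Gzma, which encodes a granzyme with trypsin-like specificity, was foremost an NK gene. NK barcodes held 179, 424, 12 and 0 UMIs, which corresponds to 2219, 3680, 1450 and 0 CPM. Only the library with 6 NK barcodes had none, and its floor, the level that 3 UMIs would give, was 184 CPM. CD8 barcodes stood at 146, 130, 5.80 and 4.92 CPM and CD4 barcodes at 8.67, 16.8, 38.6 and 15.9 CPM, the latter from 3, 18, 2 and 2 UMIs. Gamma-delta barcodes held 0 Gzma UMIs in all 4 libraries.

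Gzma was found in many NK barcodes and in few T barcodes. In the siCont libraries 62.1% and 71.4% of NK barcodes held at least 1 Gzma UMI, at median depths of 2591 and 3075 UMIs. With every barcode thinned to 1000 UMIs the shares were 41.4% and 57.1%. B cell barcodes, which should lack the gene, had 2433 and 2736 UMIs at the median. For each member taken by itself, at most 0.405% of them held a UMI after thinning, so the NK share was far above this background.

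Gzmk, a granzyme found mostly in memory-type T cells, had the opposite distribution. CD4 barcodes held 69.3, 87.6, 38.6 and 207 CPM and CD8 barcodes 71.4, 47.0, 34.8 and 78.7 CPM. The NK and gamma-delta classes held 0 UMIs in every library. The value of 207 CPM rests on a single barcode, which held 18 of the 26 Gzmk UMIs in the CD4 class of siFXR1-LNA replicate 2. Of 970 Gzmk UMIs in the kept barcodes, 45.6% lay in T barcodes and 0 in NK barcodes, whereas 33.6% of the 1831 Gzma UMIs lay in NK barcodes.

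Gzmb, the aspartate-cleaving granzyme that activates caspases, was again highest in NK barcodes at 434, 712, 0 and 61.2 CPM. CD8 barcodes followed with 109, 36.8, 29.0 and 39.4 CPM, and CD4 barcodes with 11.6, 1.86, 0 and 0 CPM. Gamma-delta barcodes held 1, 0, 0 and 4 UMIs. Outside lymphocytes, mast cell or basophil barcodes of siCont replicate 1 held 84 Gzmb UMIs, of which 80 came from 1 barcode.

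Gzmm, a granzyme with a preference for long aliphatic residues, differed from the others in being foremost a CD8 transcript in the siCont libraries. CD8 barcodes held 94.2, 31.3, 5.80 and 0 CPM, NK barcodes 24.8, 0, 0 and 0 CPM, and CD4 barcodes 0, 5.59, 0 and 7.95 CPM. Of 322 Gzmm UMIs, 21.1% lay in CD8 barcodes and 13% in macrophage barcodes. By library, CD8 barcodes held 35.5%, 33.0%, 1.30% and 0% of the Gzmm UMIs and macrophage barcodes 12.9%, 7.77%, 11.7% and 26.5%.

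Prf1, which encodes the pore-forming protein perforin, stood at 198, 425, 0 and 184 CPM in NK barcodes. In CD8 barcodes it was 25.7, 14.7, 11.6 and 32.0 CPM, and in CD4 barcodes 8.67, 5.59, 19.3 and 7.95 CPM. The 3 NK classes with a Prf1 UMI were each above all 4 CD8 classes. Perforin and granzyme B act together. Of the CD8 barcodes with Gzmb, 2 of 10, 3 of 17, 0 of 4 and 1 of 11 also held Prf1. Among all CD8 barcodes Prf1 was held by 7.76%, 4.75%, 3.23% and 9.09%. With 40 Prf1 UMIs in 38 CD8 barcodes, the counts are too sparse to tell whether the 2 genes share cells.

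Nkg7, a membrane protein of cytotoxic granules that promotes their release, was the member most often counted, with 6609 UMIs in all. NK barcodes held 1958, 2925, 846 and 857 CPM, CD8 barcodes 979, 686, 394 and 467 CPM, and CD4 barcodes 231, 235, 38.6 and 286 CPM. In siCont replicate 2, 26 Nkg7 UMIs came from gamma-delta barcodes, against 1, 0 and 5 in the other libraries. Thinned to 1000 UMIs, 79.3% and 78.6% of siCont NK barcodes and 56.5%, 39.0%, 30.7% and 33.3% of CD8 barcodes held the transcript.

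Ifng, which encodes interferon gamma, was nearly absent from CD8 barcodes. CD4 barcodes held 20.2, 38.2, 0 and 0 CPM and CD8 barcodes 0, 0.921, 0 and 0 CPM, the latter from 1 UMI. Of 287 Ifng UMIs, 16.7% lay in CD4 barcodes, 24.7% in T barcodes that fell into no subset and 0.348% in CD8 barcodes. In gamma-delta barcodes there were 1, 1, 0 and 6 UMIs.

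Fasl, the ligand of the death receptor Fas, was low in all classes. NK barcodes held 49.6, 95.5, 121 and 123 CPM, CD8 barcodes 17.1, 11.1, 23.2 and 22.1 CPM, and CD4 barcodes 14.5, 8.38, 0 and 23.9 CPM. NK values exceeded the T values in each library, although the siFXR1-LNA values come from 4 and 6 NK barcodes.

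Klrk1, which encodes the activating receptor NKG2D, stood at 421, 729, 242 and 612 CPM in NK barcodes. CD8 barcodes held 54.2, 64.5, 0 and 29.5 CPM and CD4 barcodes 34.7, 26.1, 0 and 0 CPM. Klrk1 was also counted outside lymphocytes, since 25.7% of its 2977 UMIs lay in conventional dendritic cell barcodes and 9.34% in T barcodes. The dendritic cell class held 90.8, 99.6, 110 and 96.4 CPM, above every CD8 value and with little spread between libraries. Macrophage barcodes held 6.72, 14.5, 0.905 and 1.43 CPM, higher in both siCont libraries, and B cells 3.11, 1.82, 0.994 and 4.90 CPM. These classes entered no test.

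**Figure D1:**
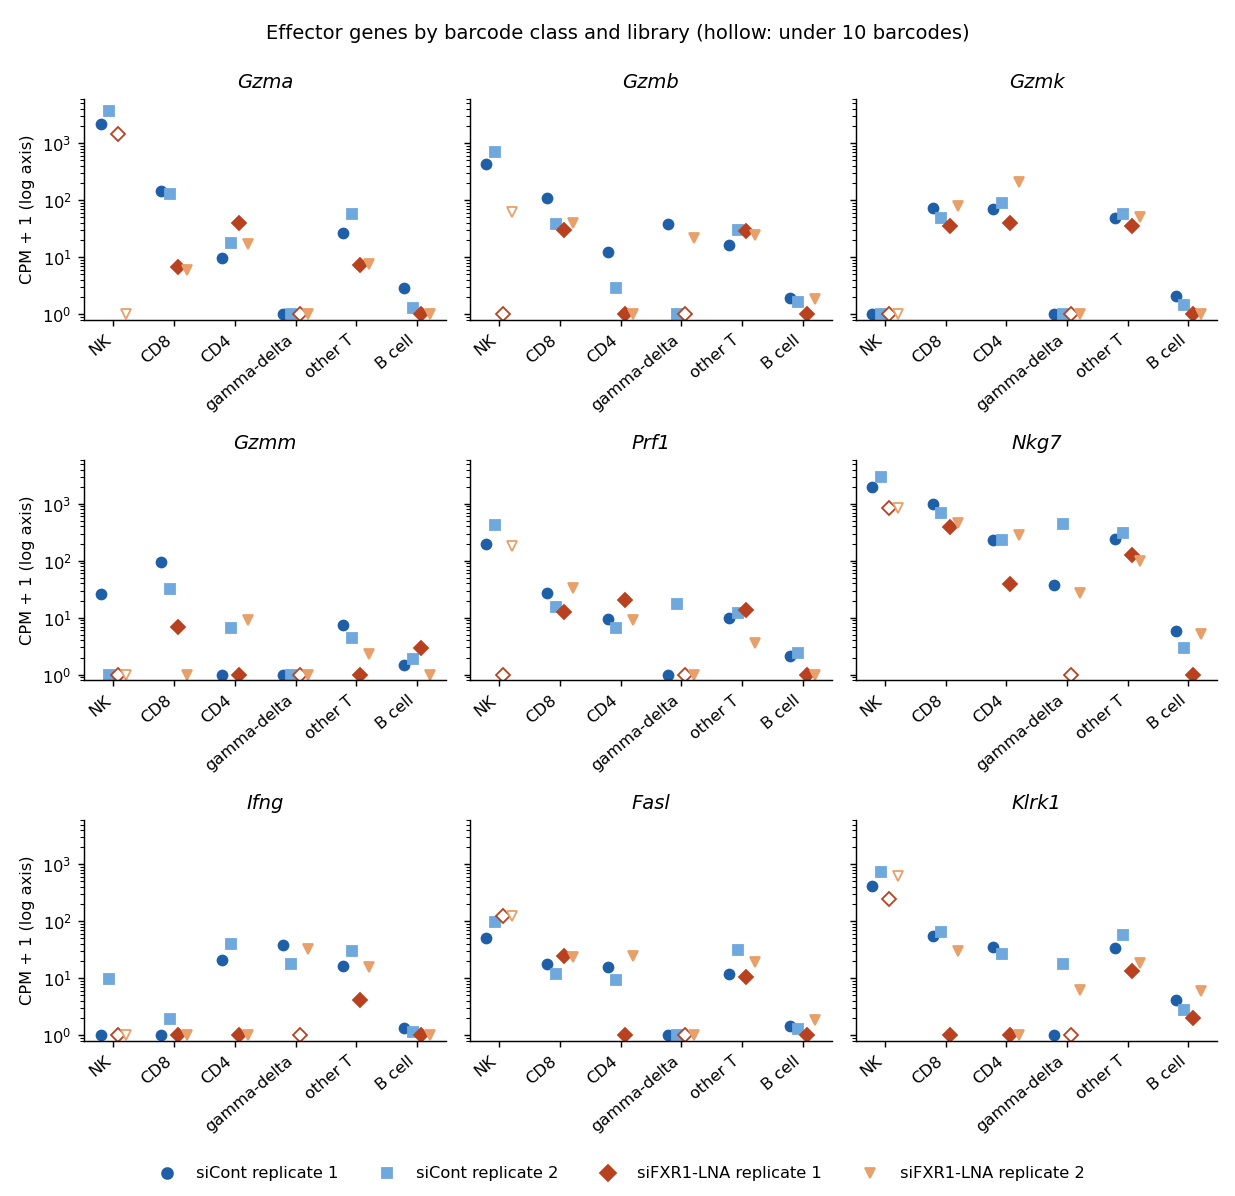
CPM plus 1 on a log axis for each of the 9 members (panels) in NK, CD8, CD4, gamma-delta, other T and B cell barcodes; each point is 1 library, colored by group, and hollow points rest on under 10 barcodes. Gzma, Gzmb, Prf1 and Klrk1 were highest in NK classes, Gzmk was at 0 in NK and gamma-delta barcodes, and Ifng was near 0 in CD8 barcodes and counted more in CD4 and other T barcodes.

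**Figure D2:**
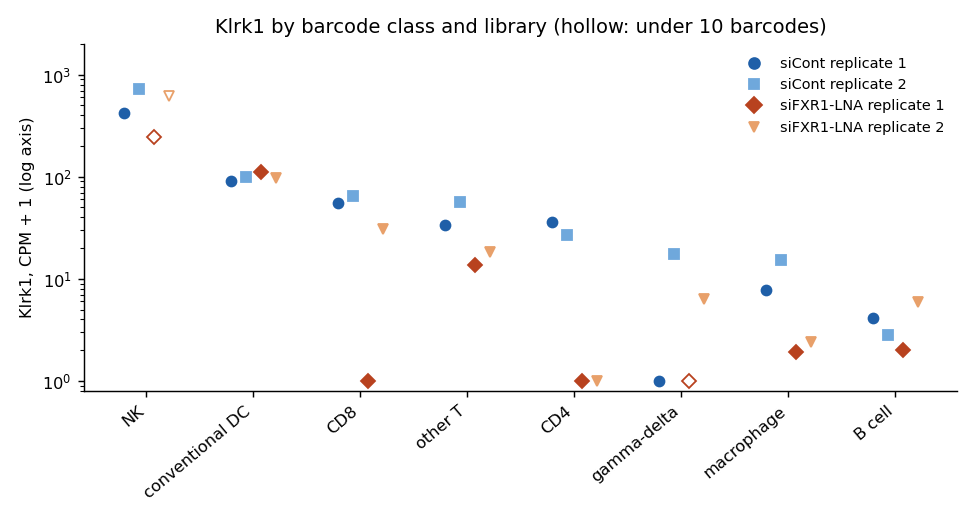
Klrk1 CPM plus 1 on a log axis in 8 classes of barcodes, with 1 point per library. The conventional dendritic cell values of 90.8 to 110 CPM sit between the NK values and the CD8 values.

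Which members separated CD8 from CD4 T barcodes was tested with library as a block. Gzmb, Gzma, Nkg7 and Klrk1 were higher in CD8 over all libraries together, while Gzmk and Prf1 did not pass the test. Ifng, Fasl and Gzmm had too few counts to enter it. The largest difference was that of Gzmb, at 3.87 ± 0.56 (SE) on the log2 scale (edgeR quasi-likelihood test, adjusted p = 4.04e-05). It was followed by Gzma at 3.03 ± 0.43 (adjusted p = 3.76e-05), Nkg7 at 1.82 ± 0.31 (adjusted p = 0.000344) and Klrk1 at 1.38 ± 0.33 (adjusted p = 0.0125). Thus 4 of the 6 members that passed the low-count filter were higher, where 5.29% of the 4746 genes tested differed in either direction and 2.95% were higher.

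The remaining members did not pass or could not be tested. Gzmk differed by -0.61 ± 0.25 (adjusted p = 0.222) and Prf1 by 1.58 ± 0.57 (adjusted p = 0.118). In the siCont libraries pooled, CD4 barcodes held 48 Ifng UMIs and CD8 barcodes 1, a CPM ratio of 48.6 with a 95% counting interval of 8.31 to 1957. Intervals of this kind, and all floors, cover counting error only. Gzmm went the other way, with 6 UMIs in CD4 and 67 in CD8 barcodes, a CPM ratio of 0.0906 (0.0321 to 0.208), as did Prf1 with 9 against 25 UMIs and a ratio of 0.364 (0.1496 to 0.8065). The median difference of the 6 members was 1.70 against 0.03 for all genes tested.

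Gzma and Klrk1 depended on the reading of the data. When each barcode carrying a gene counted once, whatever its number of UMIs, Gzma differed by -0.17 (adjusted p = 0.941), and without siCont replicate 2 Klrk1 lost its call (adjusted p = 0.689). DESeq2 called only Gzmb among the members.

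NK barcodes exceeded CD8 barcodes in 5 of the 6 members tested, and Gzmk went the other way. This comparison rests on the NK classes of the siCont libraries, since those of the libraries labelled siFXR1-LNA held under 10 barcodes. Gzma differed by 4.36 ± 0.32 on the log2 scale (edgeR adjusted p = 8.35e-10), Prf1 by 3.91 ± 0.47 (adjusted p = 1.49e-06), Gzmb by 3.13 ± 0.35 (adjusted p = 5.12e-07), Klrk1 by 3.07 ± 0.29 (adjusted p = 2.81e-08) and Nkg7 by 1.36 ± 0.35 (adjusted p = 0.0132). All 6 differences passed the test, where 7.31% of all genes did and 3.43% were higher, and the median of the 6 was 3.10 against -0.05 for all genes.

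Counts pooled over the siCont libraries gave the same order at the top. NK barcodes held 23.0 times the Gzma CPM of CD8 barcodes (counting interval 19.5 to 27.2) and 19.1 times the Prf1 CPM. Gzmb was 11.0 times (8.19 to 14.8) and Klrk1 9.72 times as high, and Nkg7 was 3.34 times as high (2.99 to 3.71). Gzmk stood at 52.9 CPM in siCont CD8 barcodes and at 0 UMIs in NK barcodes, where 3 UMIs would give 37.2 and 26.0 CPM in siCont replicates 1 and 2. Its edgeR test passed as well (adjusted p = 0.00771). Gzmm, with 67 UMIs in CD8 and 2 in NK barcodes, had a ratio of 4.57 toward CD8, with an interval of 1.22 to 38.5. Without siCont replicate 2 the calls of Nkg7 (adjusted p = 0.143), Prf1 (0.118) and Gzmk (0.344) were lost, and with carrying barcodes in place of UMIs the Nkg7 difference was 0.13 (adjusted p = 0.88).

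Gamma-delta barcodes, few in number, held few UMIs of most members. Against CD4 barcodes only Gzmk among 6 members tested passed, lower in gamma-delta (edgeR adjusted p = 2.58e-05), where 7.71% of all genes passed. Pooled over the 4 libraries, CD4 barcodes held 91.4 Gzmk CPM and gamma-delta barcodes 0 UMIs, at least 8.95-fold higher against a floor of 10.2 CPM. The other differences were -1.23 for Klrk1 (adjusted p = 0.612), -0.81 for Nkg7 (0.453), -1.32 for Prf1 (0.758) and 2.23 ± 1.15 for Gzmb (0.331). For Gzma the value was -4.06 with an SE of 2.63 (adjusted p = 0.509), a spread too wide to place it. Without siCont replicate 2 Nkg7 passed as well (-3.01, adjusted p = 0.000136).

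The related genes of the cytotoxic program, taken from lists by function, gave the setting of these class differences. Between CD8 and CD4, 2 of 8 further granule proteins were higher, Cst7 and Ctsw, whereas 0 of 6 genes of the release machinery passed in edgeR (2 at an unadjusted p under 0.05, and 0 passed in DESeq2). The 5 largest differences were those of Cd160 (4.67, adjusted p = 0.0422), Klrc1 (4.27, 4.07e-05), the factor Eomes (3.33, 0.000738), Klrd1 (2.44, 7.68e-06) and the chemokine Ccl5 (2.35, 0.000328). Of 13 killer and activating receptor genes 3 were higher in CD8 and 1, Il12rb2, was lower. Lef1 and Ccr7, genes of resting T cells, were also higher in CD8.

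In NK against CD8 barcodes, 9 of 13 receptor genes and 4 of 8 further granule proteins were higher, and 6 of 8 resting T cell genes were lower. The chemokines Ccl3 (5.83, edgeR adjusted p = 6.49e-06) and Xcl1 (4.89, 1.53e-08) were higher in NK barcodes, Il7r was lower (-5.08, 9.12e-09), and Ccr7 and S1pr1 held 0 UMIs in NK barcodes. The Ccl3 value rests on 3 NK barcodes of siCont replicate 2 with 40 UMIs, against 1 UMI in siCont replicate 1. Again 0 of 6 release machinery genes passed in edgeR (1 at an unadjusted p under 0.05, and 0 in DESeq2). In gamma-delta against CD4 barcodes, 5 of 8 resting T cell genes were lower, among them Ccr7, S1pr1 and Tcf7 and Klf2 with differences of -5.36, -4.51, -3.54 and -2.23, and Tnf was higher (2.79, adjusted p = 0.0272).

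The share of barcodes that held several members at once was highest in the NK class of the siCont libraries. After thinning to 1000 UMIs, 86.2% and 92.9% of siCont NK barcodes held at least 1 member and 41.4% and 50.0% held 3 or more. Of CD8 barcodes 60.0%, 43.2%, 33.9% and 40.8% held at least 1, but 5.22%, 2.08%, 0% and 1.67% held 3 or more. CD4 barcodes held at least 1 in 27.4%, 22.6%, 0% and 17.8% and gamma-delta barcodes in 20%, 20.8%, 0% and 9.68%.

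Members that occurred together are given as counts, which were not tested. In CD8, Gzmk carriers held Nkg7 in 15 of 15, 19 of 22, 4 of 4 and 11 of 11 barcodes, where 73.3%, 60.5%, 54.8% and 62.8% of all CD8 barcodes did. In CD4, 6 of 17, 10 of 48, 1 of 2 and 4 of 6 Gzmk carriers held Nkg7, where 25.4%, 21.9%, 5% and 20% of all CD4 barcodes did. CD8 carriers of Gzma also held Gzmk in 2 of 2, 8 of 12, 1 of 1 and 1 of 1 barcodes. CD4 carriers of Ifng held Nkg7 in 5 of 7 and 11 of 29 barcodes of the siCont libraries, and the libraries labelled siFXR1-LNA held no such carrier.

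**Figure D3:**
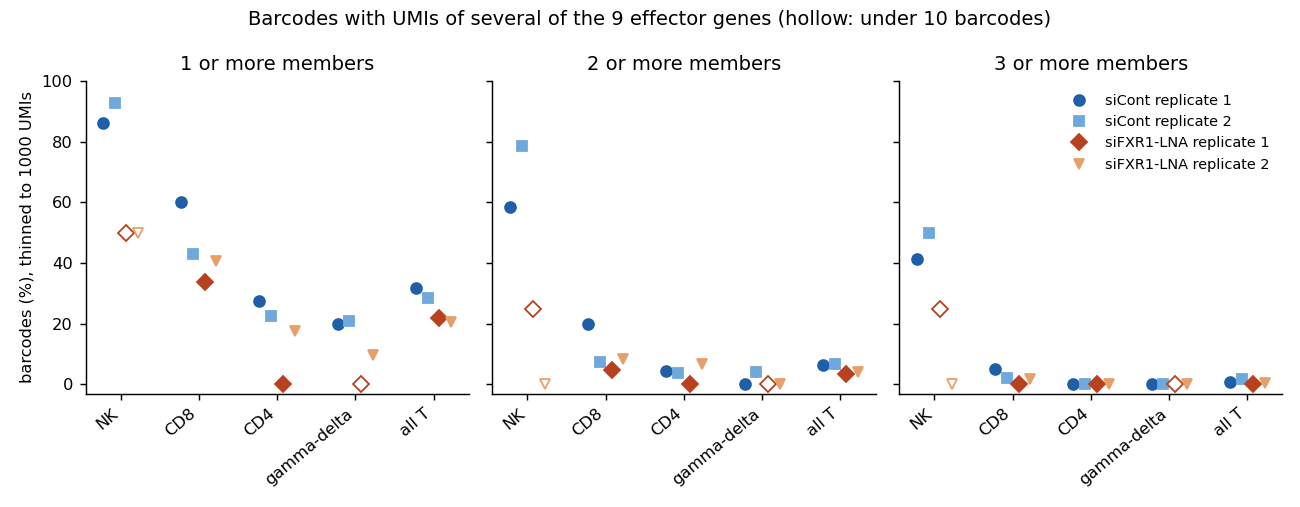
Percent of barcodes thinned to 1000 UMIs that held at least 1, at least 2 and at least 3 of the 9 members, by class, with 1 point per library. In the siCont NK classes 41.4% and 50.0% held 3 or more, against 5.22% at most in CD8.

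Across 42 sums of a class in a library, each member's level was set beside those of 8658 other genes, as log2(CPM + 1). These correlations describe the sums, which share libraries, depth and class makeup. Klrk1 was most like Klrd1 (Pearson r = 0.919), whose product pairs with other NKG2 receptors, and Gzmk was most like Izumo1r (0.937), a folate receptor gene of T cells. Prf1 and Fasl were both most like Eomes (0.883 and 0.885), Nkg7 like Ms4a4b (0.896), Ifng like Bik (0.909), Gzmb like Samd3 (0.831) and Gzma like 1810006J02Rik (0.856) and Klrc1 (0.855). Gzmm had no close partner, the nearest being the T cell receptor segment Trbv16 (0.591). Among the members themselves Prf1 and Nkg7 were closest (0.885), whereas Gzmm and Ifng stood at 0.003 and Gzmk and Klrk1 at 0.127.

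The comparison the study was designed for sets the libraries labelled siFXR1-LNA against siCont. Among T barcodes, Gzma was the only member that passed the test, with the lower values on the siFXR1-LNA side. Its values were 44.9 and 65.5 CPM in siCont and 8.92 and 6.10 CPM in siFXR1-LNA, without overlap between the groups. The difference was -2.94 ± 0.41 (SE) on the log2 scale (edgeR quasi-likelihood test, adjusted p = 0.0294). From the sums alone, fewer cells with the transcript and less RNA per cell cannot be told apart, so the barcodes with Gzma are counted further on. All 9 members passed the low-count filter and 1 was called, where 1.24% of 10540 genes were called and 0.636% were called lower.

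The other 8 members did not pass. Klrk1 stood at 36.7 and 49.2 CPM against 7.14 and 17.6 CPM (-1.63 ± 0.41, edgeR adjusted p = 0.171), and Gzmm at 21.9 and 12.2 CPM against 1.79 and 1.36 CPM (-3.41 ± 0.68, adjusted p = 0.0876). Nkg7 stood at 377 and 399 CPM against 196 and 207 CPM (-0.91 ± 0.25, adjusted p = 0.21). Ifng stood at 13.7 and 23.1 CPM against 1.79 and 11.5 CPM (-1.20 ± 0.62, adjusted p = 0.518). Klrk1, Gzmm, Nkg7 and Ifng were each lower in both libraries labelled siFXR1-LNA than in either siCont library. For any gene, 2 of the 6 ways to divide the libraries separate the groups fully in 1 or the other direction. The share of all genes that did so was not counted, so nothing is read from it. Klrk1 passed without siCont replicate 1 (adjusted p = 0.00999), and Gzmm without siCont replicate 2 (adjusted p = 0.0171).

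For the rest the groups overlapped or nearly did. Gzmb stood at 32.9 and 22.8 CPM against 25.0 and 25.7 CPM, Gzmk at 55.9 and 61.5 CPM against 33.9 and 64.4 CPM, Prf1 at 12.1 and 10.6 CPM against 12.5 and 10.8 CPM, and Fasl at 12.6 and 17.7 CPM against 12.5 and 17.6 CPM. Their differences were -0.08 ± 0.32, -0.17 ± 0.32, 0.06 ± 0.43 and 0.05 ± 0.40, with edgeR adjusted p-values of 0.882 to 0.989. Pooled counts gave siCont to siFXR1-LNA ratios of 0.981 for Prf1 (counting interval 0.599 to 1.66) and 0.987 for Fasl (0.655 to 1.52). The median difference of the 9 members was -0.91 against -0.01 for all genes, and 7 of 9 were negative.

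**Figure D4:**
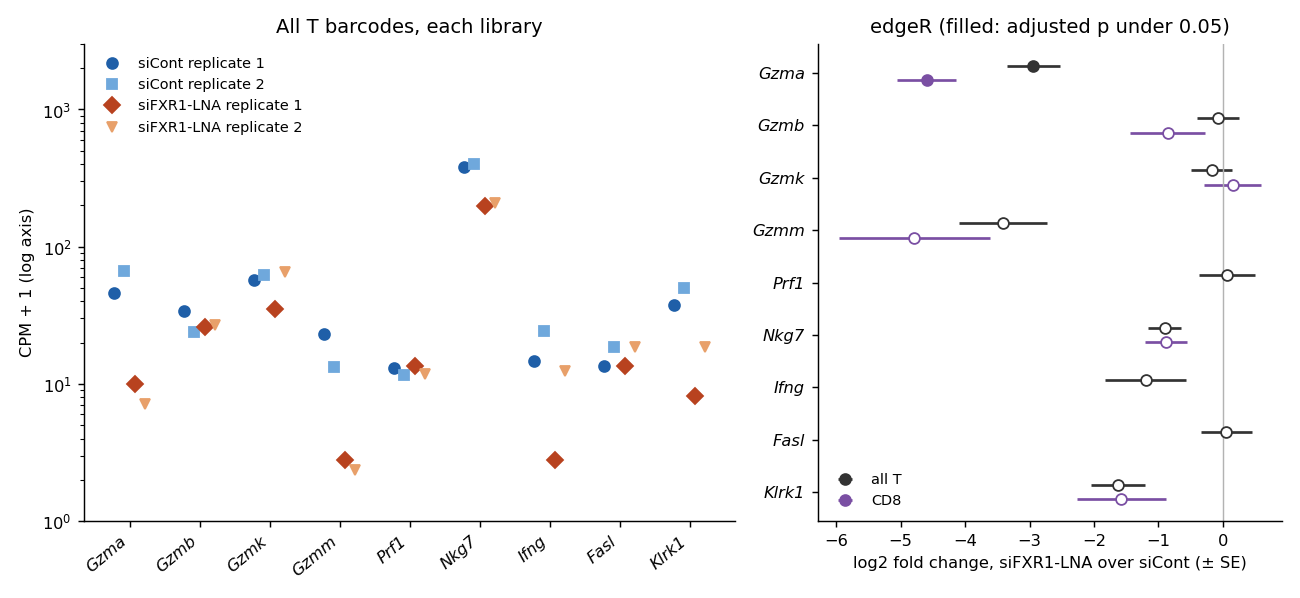
Left, CPM plus 1 (log axis) of the 9 members in all T barcodes of each library; right, the edgeR log2 difference of siFXR1-LNA less siCont with its SE in all T and in CD8 barcodes, filled where the adjusted p was under 0.05. Gzma, at -2.94 in all T and -4.60 in CD8, carries the filled points.

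The difference in Gzma lay in the number of UMIs per barcode more than in the number of barcodes. T barcodes with at least 1 Gzma UMI numbered 13 of 761, 37 of 1257, 4 of 223 and 6 of 513. The siCont carriers held 82 and 241 UMIs between them, and the others 5 and 9. When each carrier counted once, the difference was -0.74 (edgeR adjusted p = 0.719), and the call was also lost without siFXR1-LNA replicate 1 (adjusted p = 0.0788) or replicate 2 (0.183), with barcodes of other-lineage markers kept (0.0538) and with no limit on hemoglobin (0.0501). The last and the carrier count were chosen after seeing the data.

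T barcodes with a UMI of an NK marker were also more frequent in siCont, at 4.21% and 5.65% against 0% and 2.73%. They held 45 of 82, 87 of 241, 0 of 5 and 2 of 9 Gzma UMIs. The summed NK marker list, of 5 genes, stood at 31.8 and 37.8 CPM in the siCont T barcodes with all 5 detected, and at 0 and 9.48 CPM with 0 and 3 detected. The mast cell list moved the same way, at 336 and 158 CPM against 19.6 and 23.7 CPM, and its member Cpa3 passed the test, with the lower level under the siFXR1-LNA label (-3.55, edgeR adjusted p = 0.0209). So did the conventional dendritic cell list, at 228 and 181 CPM against 10.7 and 14.2 CPM, in which Cd209a was called lower (adjusted p = 0.00577). The granulocyte list moved the other way, at 104 and 686 CPM against 912 and 4147 CPM, and its 3 tested genes had positive differences with 0 called in edgeR and 3 at an unadjusted p under 0.05. The part of any of these cells in the Gzma difference was not tested.

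Within CD8 barcodes Gzma was lower by a larger margin. Its values were 146 and 130 CPM in siCont against 5.80 and 4.92 CPM in siFXR1-LNA, from 51, 141, 1 and 2 UMIs. The groups lay far apart, and the edgeR difference was -4.60 ± 0.46 (adjusted p = 0.0169). It passed in all 12 alternative settings in which Gzma could be tested, between -4.68 and -4.30. The pooled ratio was 25.8 with a counting interval of 8.70 to 126. In CD8, 1 of the 6 members tested was called, where 0.277% of 5773 genes were called and 0.0693% were called lower.

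These UMIs came from few barcodes. In siCont replicate 1 there were 2 carriers with 34 and 17 UMIs, and in replicate 2 there were 12, of which the highest held 91, 15, 14, 7, 5 and 3 UMIs and the other 6 held 1 each. Each library labelled siFXR1-LNA had 1 carrier, with 1 and 2 UMIs. Without the highest barcode of each library the values were 48.5, 46.0, 0 and 0 CPM, the zeros being fixed by the single carrier in each of those libraries. Thinned to 1000 UMIs, 1.74% and 2.08% of siCont CD8 barcodes and 0% in the other group held Gzma (exact permutation test, two-sided p = 0.333, which is the smallest that 2 against 2 libraries can give). Unthinned, the shares were 1.72%, 3.56%, 1.61% and 0.826%, so they lay closer together than the UMI counts.

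**Figure D5:**
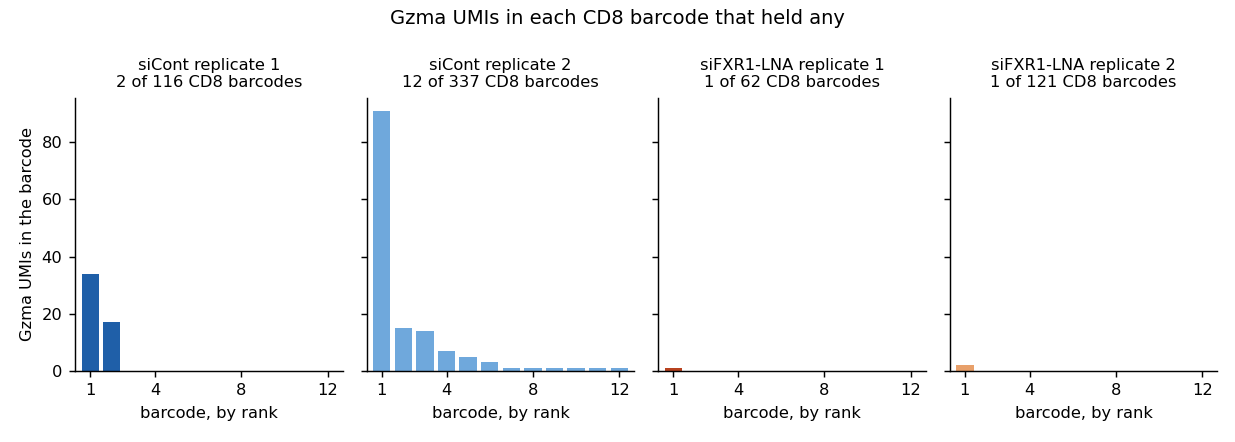
Gzma UMIs in each CD8 barcode that held any, ranked within each library. The 2 and 12 carriers of the siCont libraries reached 34 and 91 UMIs, and the 1 carrier in each library labelled siFXR1-LNA held 1 or 2.

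The other CD8 members did not pass. Gzmm stood at 94.2 and 31.3 CPM against 5.80 and 0 CPM (-4.79 ± 1.17, edgeR adjusted p = 0.225), and its 67 against 1 UMIs gave a pooled ratio of 27.0 with a counting interval of 4.69 to 1083. Nkg7 stood at 979 and 686 CPM against 394 and 467 CPM (-0.88 ± 0.33, adjusted p = 0.562) and Klrk1 at 54.2 and 64.5 CPM against 0 and 29.5 CPM (-1.58 ± 0.69, adjusted p = 0.671). Gzmk differed by 0.15 ± 0.44 (edgeR adjusted p = 0.971) and Gzmb by -0.86 ± 0.59 (edgeR adjusted p = 0.801). Gzmm passed in 4 of its 12 alternative settings, among them without siCont replicate 2 (adjusted p = 3.38e-06) and without siFXR1-LNA replicate 1 (0.00135). Klrk1 passed without siFXR1-LNA replicate 2 (adjusted p = 0.0409), where the remaining library of that label held 0 UMIs.

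CD4 barcodes allowed a test of Nkg7 and Gzmk alone, and 0 of 2 were called in edgeR, 0 at an unadjusted p under 0.05 and 0 in DESeq2, where 2.30% of 4132 genes were called. Nkg7 differed by -0.24 ± 0.50 (adjusted p = 0.916) and Gzmk by 0.91 ± 0.50 (adjusted p = 0.466). Both rest on siFXR1-LNA replicate 2, without which they were -2.73 (adjusted p = 0.0213) and -1.19. The libraries labelled siFXR1-LNA held 0 Ifng and 0 Klrk1 UMIs in their 20 and 45 CD4 barcodes, against 48 and 40 UMIs in siCont. In those 2 CD4 classes 3 UMIs would give 57.8 and 23.85 CPM, and the siCont means were 29.2 CPM for Ifng and 30.4 CPM for Klrk1. The zeros of siFXR1-LNA replicate 1 alone therefore set no minimum fold. Pooled by group, the siCont CD4 barcodes stood at 33.8 CPM for Ifng and 28.2 CPM for Klrk1. Against the pooled siFXR1-LNA floor of 16.9 CPM these are at least 2.00-fold and 1.67-fold higher, a bound that covers counting error only. Gzma, by contrast, had a siCont to siFXR1-LNA ratio of 0.657 in CD4, with a counting interval of 0.222 to 2.63.

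Whether the Gzma difference had the same size in the CD8 and the CD4 class was tested by itself. The group difference in CD8 less that in CD4 was -5.24 ± 1.32 on the log2 scale (edgeR interaction term, adjusted p = 0.0267), the only call among 6 members tested, where 0.313% of 6717 genes were called. The CD4 side rests on 3, 18, 2 and 2 UMIs, and the term passed in 3 of 10 alternative settings, with adjusted p-values from 0.0263 to 0.393. It failed whichever library was left out (adjusted p = 0.0724 to 0.393) and in DESeq2 (0.162). Nkg7 (-0.61 ± 0.36, adjusted p = 0.803), Gzmk (-0.64 ± 0.50, adjusted p = 0.917) and Klrk1 (5.09 ± 3.09, adjusted p = 0.818) did not pass.

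Nkg7, carried by more T barcodes than any other member, was found in fewer of them in the libraries labelled siFXR1-LNA. Thinned to 1000 UMIs, 22.2% and 21.2% of T barcodes in siCont and 14.8% and 14.4% in siFXR1-LNA held Nkg7 (exact permutation test, two-sided p = 0.333). Unthinned, the shares were 31.3%, 34.3%, 28.3% and 24.6% at median depths of 1896, 2466, 2175 and 2731 UMIs. The groups did not overlap on either scale, but the share of all genes that did so was not counted, so nothing is read from it. After thinning, the Gzmk, Gzmm, Ifng and Klrk1 shares were also lower without overlap. The Gzmb share was higher without overlap, at 1.36% and 1.38% in siCont and 1.79% and 1.78% in siFXR1-LNA. The Gzma, Prf1 and Fasl shares overlapped. Barcodes under 1000 UMIs, numbering 25, 25, 0 and 6, were left out of the thinned shares. B cell barcodes held Nkg7 in at most 0.911% without thinning.

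NK barcodes were too few in the libraries labelled siFXR1-LNA for a test, and their values stand as counts. The 4 NK barcodes of replicate 1 held 12 Gzma UMIs in 3 barcodes, and the 6 of replicate 2 held 0. In siCont, 18 of 29 and 20 of 28 NK barcodes held Gzma.

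Part of the Gzma counts lay in barcodes outside these classes. In siCont replicates 1 and 2, 1153 and 763 barcodes met the T or NK rule but were left out, 638 and 517 of them for hemoglobin over 20% of UMIs. These left-out barcodes held 319 and 162 Gzma UMIs. In the libraries labelled siFXR1-LNA 66 and 314 such barcodes held 3 and 2 Gzma UMIs, so the direction of the Gzma values was the same there.

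Among the listed genes around the members, the T barcodes showed a single edgeR call between groups. The chemokine Ccl3 was higher in the libraries labelled siFXR1-LNA, at 42.8 and 23.7 CPM against 1.10 and 1.90 CPM (4.31, edgeR adjusted p = 0.024). The 11 killer and activating receptor genes tested all had negative differences, with a median of -0.56, where 5400 of all 10540 genes were negative. Of these receptor genes 0 passed in edgeR (3 at an unadjusted p under 0.05, and 1 in DESeq2). The 8 further granzymes and granule proteins tested had a median of 0.035, with 4 positive and 4 negative differences. Among them 0 passed in edgeR (3 at an unadjusted p under 0.05, and 1, higher, in DESeq2). The release machinery and effector transcription factor lists had medians of -0.16 and -0.06, with 0 called in either tool. The 8 resting T cell genes had a median of -0.41, and 0 passed (0 at an unadjusted p under 0.05, and 0 in DESeq2). In the interaction term, Satb1, a chromatin organiser of T cells, was the only other listed gene called (-1.38, edgeR adjusted p = 0.0209).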

How the data were processed

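The deposited files hold UMI counts per gene and barcode, which the authors made with Cell Ranger 7.0.0 (submitters' processing notes) on mm10. The labels and the methods name different kit and Cell Ranger versions. The study's stated filter was applied, which keeps barcodes with 100 to 4800 genes and no more than 15% of UMIs from mitochondrial genes. T barcodes had 2 or more Cd3 UMIs. CD8 and CD4 barcodes had 1 or more UMIs of Cd8a or Cd8b1, or of Cd4, with none of the other and no Trdc, gamma-delta barcodes 2 or more of Trdc, and NK barcodes no Cd3 and 2 or more of 5 NK markers. Barcodes with 2 or more B cell, macrophage or granulocyte marker UMIs, or over 20% hemoglobin, were left out. Other classes needed 3 marker UMIs. No doublet caller was run.

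Counts were summed per library and class, with at least 10 barcodes per sum, and tested with edgeR 4.0.16 in R 4.3.3 (TMM, filterByExpr, quasi-likelihood F test, Benjamini-Hochberg over all genes tested, threshold 0.05), in 9 planned contrasts, of which the group contrasts in gamma-delta and NK barcodes were not possible for want of barcodes. DESeq2 1.42.0 was an alternative, and the fits were tested on simulated data. CPM are UMIs per 1000000 of the class and library, and floors are 3 UMIs. Python 3.11.15, pandas 2.3.3, scipy 1.17.1 and numpy 2.4.6 did the rest. The text names all 9 members, the 5 listed genes with the largest called difference in a contrast, and the genes most like each member. Other alternatives were stricter markers, other limits on genes and mitochondrial UMIs, kept other-lineage barcodes, no low-count filter, a replicate block and each library left out. The members and lists were chosen with earlier results of these data known. The result of 1 listed gene is not reported here.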

Additional observations from a re-analysis of the deposited data

Results flagged for a closer look

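The difference in Gzma between the libraries labelled siFXR1-LNA and siCont was not the same in CD8 and in CD4 barcodes. The difference in CD8 less that in CD4 was -5.24 on the log2 scale (edgeR interaction term, adjusted p = 0.0267). The CPM were 146, 130, 5.80 and 4.92 in CD8 and 8.67, 16.8, 38.6 and 15.9 in CD4, in the order siCont replicates 1 and 2 and siFXR1-LNA replicates 1 and 2. The term did not pass when any library was left out (adjusted p = 0.0724 to 0.393), and the CD4 values rest on 3, 18, 2 and 2 UMIs.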

How the results depend on the processing

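With siCont and siFXR1-LNA compared in T barcodes, 131 genes and 1 member were called. DESeq2 called 265 genes, no low-count filter 745 (3 members), no limit on hemoglobin 84 (0 members), kept other-lineage barcodes and counted carriers 0 members each, and leaving out a library 0 to 760 genes (0 to 2 members), namely 760 without siCont replicate 1, 274 without siCont replicate 2, 37 without siFXR1-LNA replicate 1 and 0 without siFXR1-LNA replicate 2. In CD8 (16 genes, 1 member) DESeq2 called 55 genes, no filter 221 (2 members), other-lineage barcodes 90, carriers 29 (0 members, since Gzma and Gzmm did not pass the filter) and leaving out a library 62 to 228 (1 to 2 members), above 16 whichever library was left out. In CD4 (95 genes, 0 members) the counts were 63, 184, 227 with other-lineage barcodes, and 62 to 265 without a library (0 to 1 members), with 62 without siCont replicate 2, 170 without siFXR1-LNA replicate 1 and 265 without siFXR1-LNA replicate 2.

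Between CD8 and CD4 (251 genes, 4 members) DESeq2 called 87 (1 member), other-lineage barcodes 391, and leaving out a library 76 to 246, the lowest without siCont replicate 2. For gamma-delta against CD4 (366, 1 member) stricter markers gave 183, carriers 235 (0 members), no filter 2 members, and leaving out a library 175 to 360 (1 to 2 members), the lowest without siFXR1-LNA replicate 2. For NK against CD8 (347, 6 members) DESeq2 gave 212, carriers 191, and leaving out a library 51 to 357 (3 to 6 members), the lowest without siCont replicate 2. The interaction (21, 1 member) gave 4 in DESeq2, 12 with no filter, 0 with carriers and 3 to 22 without a library, the lowest without siFXR1-LNA replicate 2, and 0 members in all of these and with no limit on hemoglobin.

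Reversed signs fell mostly on differences near 0. In T barcodes stricter markers gave Fasl -0.02, Prf1 -0.35 and Gzmk 0.05, other-lineage barcodes Fasl -0.51 and Prf1 -0.33, no limit on hemoglobin Fasl -0.3 and Prf1 -0.06, and carriers Prf1 -0.06 and Gzmb 0.72. Leaving out a library gave Fasl -0.2 to 0.36, Prf1 -0.05 to 0.24, Gzmk -0.7 to 0.14 and Gzmb -0.31 to 0.18. In CD8, Gzmk was -0.26 with other-lineage barcodes, -0.1 with carriers and -0.73 to 0.52 without a library, and Gzmb 0.36 with carriers. In CD4, Gzmk was -0.09 with carriers and -1.19 to 1.38, and Nkg7 -2.73 to 0.31, without a library. Gzma between CD8 and CD4 was -0.17 with carriers. The cause was not tested.

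Shares reversed as well, in percentage points. In T barcodes Gzmb was -0.027 and Prf1 0.369 at 500 UMIs, and Prf1 1.748 at 2000. In CD8, at 2000 UMIs Gzmb was 0.502, Gzmk 0.989, Prf1 0.611 and Fasl -2.128, Gzmk was 1.176 at 500 UMIs and Gzmb 0.938 unthinned. Leaving out a library gave -0.744 to 0.206 (Prf1) and -0.327 to 0.534 (Fasl) in T, and -3.234 to 1.64 (Gzmk) and -1.316 to 0.351 (Prf1) in CD8.

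The replicate numbers name samples only. Same-numbered deviations correlated at 0.243 (T), 0.192 (CD8) and 0.039 (CD4). With the replicate number as a block 736, 221 and 262 genes were called, with 3, 2 and 0 members (Klrk1, Gzmm and Gzma in T, Gzmm and Gzma in CD8). Leaving out a library leaves a lone sample that is assumed to vary like the others. Stricter markers left under 10 barcodes for the CD8, CD4 and interaction contrasts, which were not run. Without the low-count filter the median of all genes moved to -0.12 in T and -0.16 in CD8. Depth limits the smallest classes, as 3 UMIs in the NK class of siFXR1-LNA replicate 2 come to 184 CPM.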
